A study of Homo sapiens with 4 samples.

Results

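A block of chromosome 16 was less expressed in E5 cells than in control cells of the pancreatic cancer line KP4. The block was defined as the protein-coding genes that start between 31.87 and 87.32 Mb of chromosome 16 (GRCh38) and reach a mean of 1 CPM (gene counts scaled per library to a fixed total) or more over all libraries. It excludes 8 individually named genes (NQO1, CDH1, CDH3, CES2, HERPUD1, NLRC5, MMP2 and AARS1) and the metallothioneins with names starting MT1 or MT2. Applied to the count table, the definition gave 201 members out of 60651 genes. The interval holds 332 protein-coding rows. Of these, 17 were excluded by name, 9 of them at 1 CPM or more, and of the remainder 114 lay under 1 CPM, including 31 with 0 reads in all libraries. The interval was chosen because its genes were lower in E5, so every E5 to control value below is a description and carries no test. The responses to the drug are a different contrast and were tested.

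KP4 is an established human pancreatic ductal adenocarcinoma line, grown here in DMEM with 10% FBS. Control cells and E5 cells, the line the series title calls resistant, each received vehicle (DMSO) or FOLFIRINOX for 96 h, which gives 4 groups. FOLFIRINOX was given as 25 nM SN-38 (the active metabolite of irinotecan), 10 µM of an agent the labels write as 5-F, and 5 µM oxaliplatin. The design text speaks of 5 cycles of DMSO or of FOLFIRINOX, and what the E5 vehicle cells had met in earlier cycles is not settled by the labels. Each group is 1 deposited sample with 3 columns, read here as 3 libraries; whether these are separate cultures or technical repeats is not given, so errors and p-values measure the spread between these libraries only. Whether E5 is a clone or a pool is not given either. DNA copy number was not measured in the files used here, and in bulk RNA fewer cells carrying a gene and less RNA per cell cannot be told apart.

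Chromosome 16 has a gene-dense short arm and a long arm that begins beyond a large pericentromeric block without genes. The long arm carries housekeeping genes for many unrelated tasks: retromer sorting (VPS35), splicing (SF3B3), messenger RNA deadenylation (CNOT1), replication origins (ORC6, GINS2), telomere protection (TERF2, TERF2IP, ACD), the proteasome (PSMD7) and the respiratory chain (COX4I1). Cancer cells often gain or lose whole chromosome arms, and the RNA of most genes on such an arm then tends to follow the number of copies.

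The members share position and not function, so the promoters shown here mark the ends of the block and 1 exception inside it. Each line gives the 250 bases before the RefSeq transcription start (GRCh38.p14, 5′ to 3′ on the gene's strand), with 3 motifs in capitals on either strand: the GC box GGGCGG, the element CCAAT and the ETS core CCGGAAG; matches may touch or overlap. ZNF267 (plus strand, chr16:31873557-31873806) and SHCBP1 (minus strand, chr16:46621380-46621629) are the first 2 members; MTHFSD (minus strand, chr16:86555236-86555485) and C16orf95 (minus strand, chr16:87317393-87317642) are the last 2; FBXO31 (minus strand, chr16:87392122-87392371) is the first gene past the end; and PSMB10 (minus strand, chr16:67936851-67937100) is a member with a higher level in E5.
ZNF267: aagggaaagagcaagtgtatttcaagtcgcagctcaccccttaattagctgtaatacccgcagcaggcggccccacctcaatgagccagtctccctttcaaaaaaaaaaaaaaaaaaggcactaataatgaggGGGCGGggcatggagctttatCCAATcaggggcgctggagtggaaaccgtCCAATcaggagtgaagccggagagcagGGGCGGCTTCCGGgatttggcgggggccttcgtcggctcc
SHCBP1: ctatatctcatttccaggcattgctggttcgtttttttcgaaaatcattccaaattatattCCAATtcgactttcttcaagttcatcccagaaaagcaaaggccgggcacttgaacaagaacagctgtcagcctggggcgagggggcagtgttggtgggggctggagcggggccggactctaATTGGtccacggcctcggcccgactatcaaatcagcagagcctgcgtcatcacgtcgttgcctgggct
MTHFSD: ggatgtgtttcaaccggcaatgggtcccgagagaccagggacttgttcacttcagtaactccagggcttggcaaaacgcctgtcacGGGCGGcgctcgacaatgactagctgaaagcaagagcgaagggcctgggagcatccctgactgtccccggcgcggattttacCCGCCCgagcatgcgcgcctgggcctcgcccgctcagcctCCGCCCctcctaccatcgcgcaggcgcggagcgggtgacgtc
C16orf95: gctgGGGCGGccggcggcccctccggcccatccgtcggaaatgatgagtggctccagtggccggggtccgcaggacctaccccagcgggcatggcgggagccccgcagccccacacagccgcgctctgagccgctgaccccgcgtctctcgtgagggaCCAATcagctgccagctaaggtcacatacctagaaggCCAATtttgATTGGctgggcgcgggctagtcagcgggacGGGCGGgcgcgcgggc
FBXO31: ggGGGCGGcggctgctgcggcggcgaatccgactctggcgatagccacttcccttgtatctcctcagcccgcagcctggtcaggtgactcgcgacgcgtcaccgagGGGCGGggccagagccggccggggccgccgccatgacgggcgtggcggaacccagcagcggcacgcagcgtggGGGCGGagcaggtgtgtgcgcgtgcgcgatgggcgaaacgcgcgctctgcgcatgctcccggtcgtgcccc
PSMB10: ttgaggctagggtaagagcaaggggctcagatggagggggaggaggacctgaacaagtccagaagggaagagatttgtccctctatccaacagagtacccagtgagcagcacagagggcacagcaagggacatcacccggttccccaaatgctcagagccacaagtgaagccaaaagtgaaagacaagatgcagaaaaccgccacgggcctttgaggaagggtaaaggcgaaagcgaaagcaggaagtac
ZNF267, at one end, holds all 3 motifs, and PSMB10 holds none of these letters. A promoter was found for 161 of the 201 members. A GC box was present in 68.9% of the members' promoters, against 68.5% of 9206 promoters of expressed coding genes on other chromosomes and 42.3% of all 27305 promoters in the RefSeq table. The CCAAT element was present in 36.6%, 35.4% and 33.0% of the same sets, and the ETS core in 24.2%, 16.3% and 8.8%. Median GC content was 65.6% in the members and 65.2% in the expressed genes elsewhere. The 5 matched members with an E5 to control ratio of 1.5 or more held a median of 10 CpG dinucleotides per promoter, against 22 over the 161; these are descriptions of letters, and no binding was measured.

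The libraries held between 7359034 and 21775030 reads in genes, and the biological coefficient of variation over all genes was 7.37%. In every group 5 of 6 pancreatic ductal markers were at a mean of 1 CPM or more, with a summed level of 195 to 230 CPM in control vehicle and 742 to 828 CPM in E5 vehicle libraries. KRT18 and KRT8, the keratins of simple epithelia, gave most of it, and EPCAM had a mean of 1.20 CPM or less in each group. KRT7, KRT19 and MUC1 had means of 1.15, 1.10 and 1.97 CPM in control vehicle and 6.68, 4.37 and 5.40 CPM in E5 vehicle. In control FOLFIRINOX the mean of KRT19 was 0.239 CPM. The fibroblast list summed to 5.44 to 5.86 CPM in control vehicle and 16.1 to 17.4 CPM in E5 vehicle libraries. COL1A1 gave most of that, with means of 3.84 and 15.5 CPM. The leukocyte list summed to 48.7 to 55.1 CPM in control vehicle libraries, nearly all of it PTPRC, and to 0.267 to 0.628 CPM in E5 vehicle libraries, while CD3E was at 0 in all libraries and CD79A, CD14 and CD68 stayed under 0.5 CPM in every group mean. Control and E5 cells thus also differ in genes far from chromosome 16, and the part of these differences in the values below was not tested.

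The members together took a smaller share of the transcriptome in E5. They accounted for 1.26% ± 0.00685 (SD, n = 3) of gene reads in control vehicle and 1.23% ± 0.0294 in control FOLFIRINOX libraries, against 0.966% ± 0.00998 in E5 vehicle and 0.942% ± 0.0255 in E5 FOLFIRINOX libraries. No E5 library reached the lowest control library: the E5 shares ran from 0.913% to 0.977%, and the control shares from 1.21% to 1.27%. The 270 expressed coding genes of chromosome 16 that lie before the interval took 1.05% to 1.20% of the reads, and their E5 and control libraries overlapped.

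The median over the members showed the same separation in each library. Relative to the mean of the control vehicle libraries, the median member stood at 99.2%, 99.1% and 103% in the control vehicle libraries and at 79.9%, 77.6% and 76.7% in the E5 vehicle libraries. Under FOLFIRINOX it stood at 89.1%, 93.2% and 90.1% in control and at 73.5%, 73.1% and 69.9% in E5 libraries. E5 libraries were below all control libraries under both treatments. In these values, scaled by the trimmed mean of M-values (TMM), FOLFIRINOX libraries were also below vehicle libraries within each line. The size of that step depended on the scaling: with total counts the members' median drug effect (log2) was 0.00 in control and -0.08 in E5 cells. Total counts also moved the median of all genes, to 0.14 and 0.07. Taken from the median of all genes, the members stood at -0.14 in control and -0.15 in E5 cells with both scalings. On log2(FPKM + 1), from the authors' length-scaled values, they stood at -0.05 in each line. With TMM, the median log2 E5/control of the members was -0.35 under vehicle (a ratio of 0.783) and -0.40 under FOLFIRINOX (0.758). The 11311 expressed coding genes on other chromosomes had medians of -0.00 and 0.01.

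**Figure D1:**
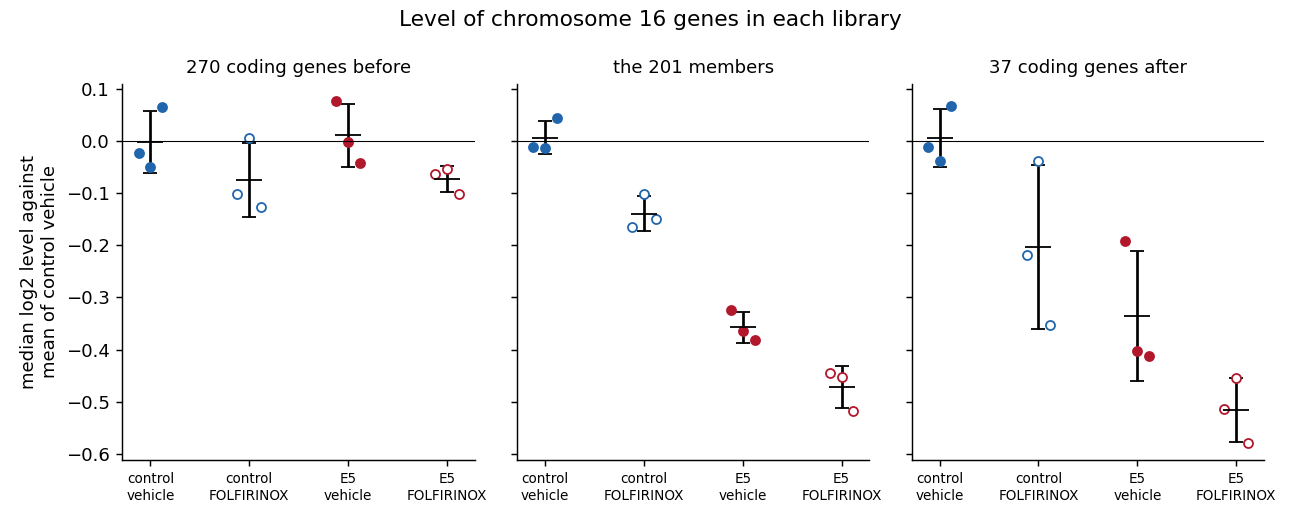
Median log2 level of the 201 members and of the expressed chromosome 16 coding genes before and after the interval in each of the 12 libraries, relative to the mean of the control vehicle libraries (points: libraries, blue control, red E5, filled vehicle, open FOLFIRINOX; bars: mean ± SD of 3 libraries). The members' E5 libraries lie between -0.52 and -0.32 and every control library lies at -0.17 or above, while the genes before the interval overlap between the lines.

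Below 0 on the log2 E5/control scale were 173 of 201 members under vehicle and 158 under FOLFIRINOX, where 50.9% and 51.0% of the 15636 genes tested were below 0; 151 members were below 0 under both treatments. For 137 members (68.2%) every E5 vehicle library was lower than every control vehicle library, against 27.8% of all genes tested, and for 130 members (64.7%) this held under FOLFIRINOX, against 28.7%. It held under both treatments for 108 members, against 14.8% of all genes. In the opposite direction, all E5 libraries were higher than all control libraries for 13 members under vehicle and 26 under FOLFIRINOX, against 27.0% and 28.4% of all genes. The members were selected on this direction, so nothing is read from these shares.

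The lower level ran along the whole interval. In windows of 5 Mb, the median log2 E5/control under vehicle was -0.50 from SHCBP1 to C16orf87 (4 members), -0.41 from GPT2 to HNRNPA1P48 (16 members), -0.30 from AC007906.2 to NUP93 (14 members), -0.42 from CPNE2 to GOT2 (25 members) and -0.51 from CDH5 to NAE1 (9 members). It was -0.33 in the densest window, from PDP2 to ZNF821 (76 members), -0.35 from DHODH to TERF2IP (20 members), -0.29 from MON1B to PLCG2 (14 members) and -0.36 from MPHOSPH6 to MTHFSD (21 members). Under FOLFIRINOX the same 9 windows had medians between -0.58 and -0.18, the last for AC007906.2 to NUP93. Every window of more than 1 member was therefore below 0 under both treatments. Over the 201 members the correlation of log2 E5/control with gene start was 0.07 (Pearson) and 0.12 (Spearman) under vehicle, with gene length -0.00 and 0.01; neighbouring members share the interval and are not independent.

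**Figure D2:**
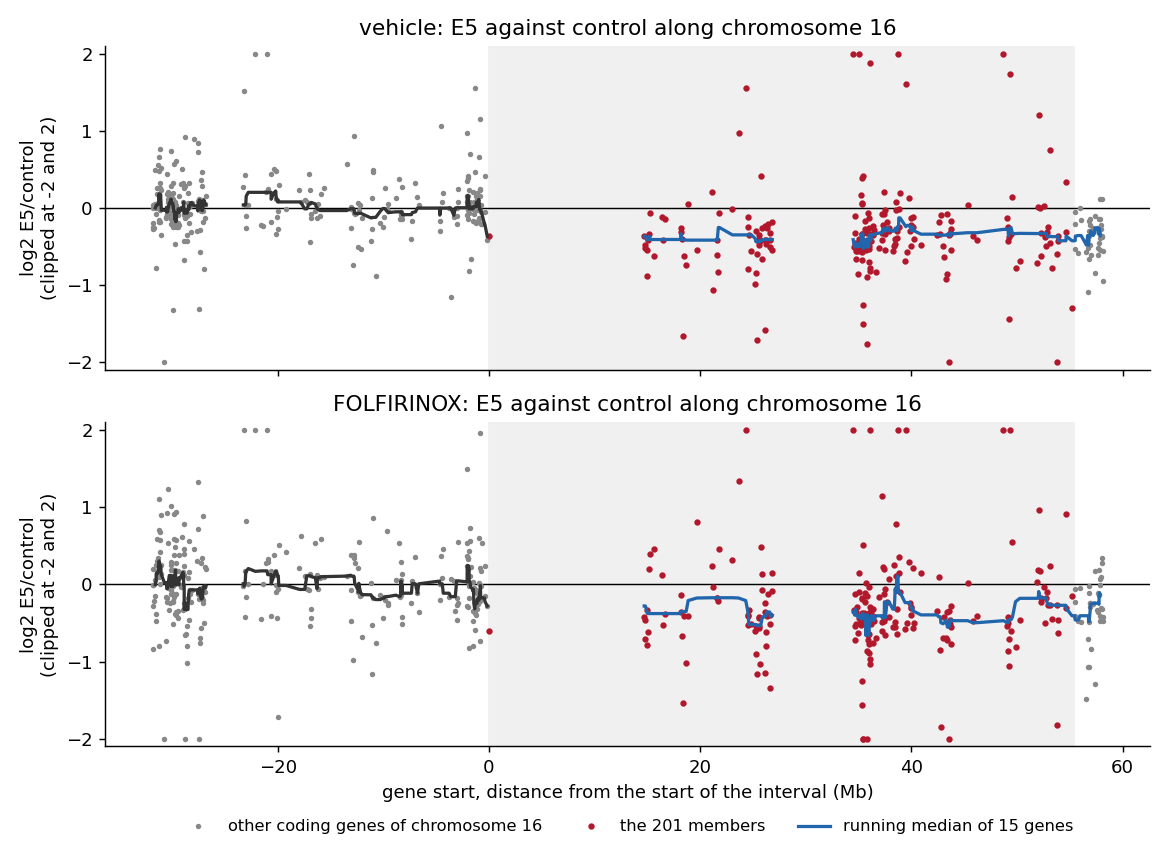
Log2 E5/control of each expressed coding gene of chromosome 16 against the distance of its start from the start of the interval in Mb, under vehicle (top) and FOLFIRINOX (bottom), clipped at -2 and 2; red, members; grey, other genes; lines, running medians of 15 neighbouring genes, dark before and blue from the start of the interval on; shading, the interval. Before the interval the line runs on both sides of 0, and under FOLFIRINOX it dips to -0.32. Its last windows before the start already take in members, and there the line reaches -0.37 under vehicle and -0.28 under FOLFIRINOX. From the start of the interval it lies below 0 and stays there beyond the end, apart from a short stretch under FOLFIRINOX near 39 Mb.

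Running medians of 15 neighbouring members were below 0 at all 187 positions under vehicle and at 185 of 187 under FOLFIRINOX. The lowest stretch lay in the same neighbourhood under both: KIAA0895L to PARD6A under vehicle (-0.52) and SLC9A5 to CENPT under FOLFIRINOX (-0.66). The highest was DDX19A to ATXN1L under vehicle (-0.13) and EXOSC6 to PHLPP2 under FOLFIRINOX (0.11). The latter holds genes on both sides of 0. CALB2, a calcium buffer, was at 1.61 and 3.38 (log2 E5/control under vehicle and under FOLFIRINOX), ST3GAL2, a sialyltransferase, at 0.07 and 0.78, and VAC14, a scaffold of phosphoinositide synthesis, at -0.24 and 0.35. The splicing factor SF3B3 (-0.38 and -0.32), the Golgi tether COG4 (-0.29 and -0.64) and the cap methyltransferase CMTR2 (-0.69 and -0.58) lay below 0 in the same stretch. DDX19A and DDX19B, neighbouring near-identical helicase genes there, cannot be fully told apart by short reads, and ATXN1L starts beside IST1, whose reads it may share.

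Genes on the 2 sides of the start differed in their medians, while those on the 2 sides of the end did not differ in this way. Before the start, running medians of 15 neighbouring genes were below 0 at 110 of 256 positions under vehicle, from -0.18 to 0.22, and at 118 of 256 under FOLFIRINOX, from -0.32 (FLYWCH2 to ZNF75A) to 0.30. Just outside the start, ARMC5 stood at -0.06 and -0.15 (log2 E5/control under vehicle and under FOLFIRINOX), RUSF1 at 0.42 and 0.24 and ZNF720 at -0.41 and -0.28. Just inside, ZNF267 (chr16:31873807-31917357) stood at -0.37 and -0.61, SHCBP1 (chr16:46578591-46621379) at -0.37 and -0.42 and VPS35 (chr16:46656132-46689518) at -0.52 and -0.46. ZNF267 lies on the short-arm side of the pericentromeric gap and SHCBP1 is the next member, so 200 of the 201 members are long-arm genes. ZNF267, a zinc finger gene, had overlapping libraries: 19.8, 19.8 and 14.8 CPM in control vehicle against 9.5, 17.2 and 13.7 CPM in E5 vehicle libraries. With ZNF720, outside, as low as the first members, and no expressed coding gene between ZNF267 and SHCBP1 in the count table, these values do not place the change in level at the start itself.

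At the far end, the last members were FOXF1, a forkhead factor, at 0.34 and 0.91, MTHFSD at -0.31 and -0.31, and C16orf95 (chr16:87083562-87317420) at -1.30 and -0.15. C16orf95 rested on 0.501 to 3.11 CPM. Just outside, FBXO31, a substrate receptor for ubiquitin ligation, stood at -0.06 and -0.23, the autophagy gene MAP1LC3B at -0.21 and -0.41, and ZCCHC14 at -0.54 and -0.06. The 37 expressed coding genes from there to the end of the chromosome had medians of -0.36 and -0.29, with 35 and 31 of them below 0. The members' medians, -0.35 and -0.40, are close to these, whereas the 270 genes before the interval had medians of 0.01 and -0.01.

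The members' ratios were centred lower than those of other genes. Their spread under vehicle was near that of chromosome 16 genes before the interval and narrower than that on other chromosomes. The interquartile range of log2 E5/control under vehicle was 0.371 for the members, 0.355 for the 270 genes of chromosome 16 before the interval and 0.502 for coding genes on other chromosomes. Under vehicle, 108 members (53.7%) had an E5 to control ratio from 0.65 to under 0.85, against 17.5% of coding genes on other chromosomes. A further 24 members had ratios from 0.5 to under 0.65 and 11 were under 0.5; 30 lay from 0.85 to under 1, 17 from 1 to under 1.5, and 11 at 1.5 or more. Under FOLFIRINOX the central band held 88 members (43.8%, against 18.3% elsewhere). The spread was widest at the lowest level: the interquartile range under vehicle was 1.06 for the 40 members of 1 to 5 CPM and between 0.232 and 0.359 in the 4 higher ranges of level, with no steady order among them. Under FOLFIRINOX it was 1.01 for the same 40 members and between 0.277 and 0.462 in the higher ranges. All 34 members of 100 CPM or more were below 0 under vehicle and 26 of 34 under FOLFIRINOX.

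**Figure D3:**
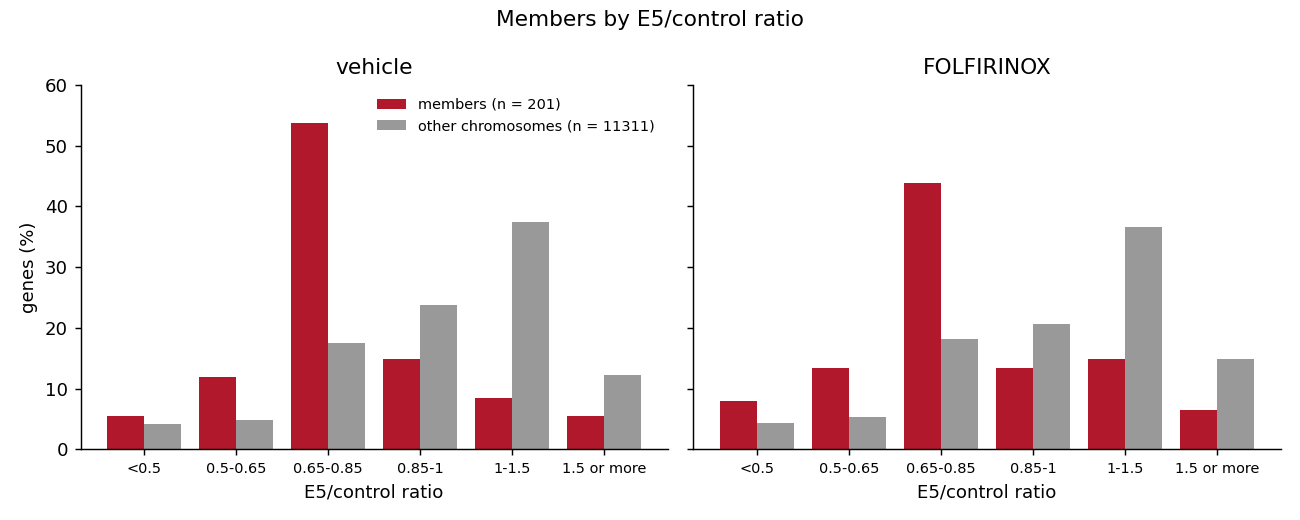
Percent of genes in each band of the E5 to control ratio, for the 201 members (red) and for 11311 expressed coding genes on other chromosomes (grey), under vehicle (left) and FOLFIRINOX (right). The members' highest bar is the band from 0.65 to 0.85 (53.7% and 43.8%), and that of the other genes is the band from 1 to 1.5 (37.4% and 36.7%).

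The interval was not alone in its lower level. By the same measure the 471 expressed coding genes of chromosome 10 had medians of -0.39 under vehicle and -0.32 under FOLFIRINOX, and the 172 of chromosome 18 had medians of -0.28 and -0.22. The medians of the other 22 chromosomes, X included, ran from -0.39 to 0.16 under vehicle. Within the interval, 33 tested genes without a protein-coding annotation had medians of -0.48 and -0.45. The 11 tested genes among those excluded by name had medians of 0.10 and 0.14. NQO1, a quinone reductase, was at 1.68 and 2.56, the cadherin CDH3 at 1.10 and 1.70, and AARS1, an alanyl-tRNA synthetase, at -0.49 and -0.89. These are excluded by name in the definition, with no reason given.

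Among genes of replication, chromosome segregation and telomeres, 15 of 15 members were below 0 under vehicle and 14 of 15 under FOLFIRINOX, with medians of -0.34 and -0.49. For 12 of the 15 under each treatment all E5 libraries were lower than all control libraries. This held for 68.2% and 64.7% of all members under vehicle and FOLFIRINOX, and for 27.8% and 28.7% of all genes tested. DYNC1LI2, a dynein light intermediate chain, stood at 296, 311 and 273 CPM in control vehicle and at 192, 203 and 201 CPM in E5 vehicle libraries. The E5 libraries were all lower, and the difference was -0.56 ± 0.062 (log2, SE). RFWD3, a ubiquitin ligase of the replication stress response, stood at 142, 138 and 142 CPM against 113, 112 and 109 CPM, a difference of -0.34 ± 0.053. ORC6, a subunit of the origin recognition complex, stood at 40.5, 40.6 and 45.6 CPM against 31.3, 29.6 and 30.5 CPM. GINS2, part of the replicative helicase, was at -0.59 and its partner GINS3 at -0.21.

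RNA processing and translation genes had 24 of 24 members below 0 under vehicle and 23 of 24 under FOLFIRINOX, with medians of -0.42 and -0.46. The exception under FOLFIRINOX was EXOSC6, a subunit of the RNA exosome, at -0.49 under vehicle and 0.25 under FOLFIRINOX. CNOT1, the scaffold of the CCR4-NOT deadenylase, stood at 530, 544 and 517 CPM in control vehicle and 407, 396 and 394 CPM in E5 vehicle libraries. SF3B3 stood at 404, 405 and 407 CPM against 318, 306 and 308 CPM. NUDT21, the subunit of cleavage factor I that binds the RNA, had a wider gap, with 319, 322 and 288 CPM against 169, 188 and 179 CPM. In all 3 genes the E5 vehicle libraries were below the control vehicle libraries.

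The list of transcription factors and chromatin genes had medians of -0.48 and -0.35, with 23 and 18 of 25 members below 0. CHD9, a chromatin remodeller, was the lowest member of 5 CPM or more under vehicle: 163, 178 and 138 CPM in control against 63.4, 82.8 and 80.9 CPM in E5 libraries. Under FOLFIRINOX its libraries overlapped, at 108, 68.4 and 102 CPM in control and 71.6, 93.3 and 106 CPM in E5. HSBP1, which binds heat shock factor, stood at 302, 301 and 323 CPM against 185, 188 and 190 CPM under vehicle and at 182 CPM in each control library against 190, 180 and 185 CPM under FOLFIRINOX. NFAT5, the factor of the osmotic stress response, had overlapping libraries under vehicle, at 140, 171 and 123 CPM in control and 112, 109 and 162 CPM in E5.

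Vesicle traffic, lysosome and autophagy genes had medians of -0.34 and -0.26, with 20 and 17 of 21 below 0. VPS35, the core of retromer, stood at 278, 270 and 257 CPM in control vehicle and 177, 195 and 186 CPM in E5 vehicle libraries. AP1G1, a subunit of the AP-1 clathrin adaptor, stood at 236, 236 and 220 CPM against 182, 195 and 188 CPM. MBTPS1, the site-1 protease of the Golgi, had no such gap, with 176, 171 and 178 CPM against 178, 175 and 171 CPM.

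Ubiquitin and proteasome genes had medians of -0.33 and -0.40, with 11 of 13 members below 0 under each treatment. PSMD7, a subunit of the proteasome lid, stood at 191, 194 and 215 CPM against 152, 155 and 163 CPM under vehicle. NAE1, a subunit of the NEDD8-activating enzyme, stood at 154, 150 and 147 CPM against 73.4, 88.1 and 86.8 CPM. The co-chaperone DNAJA2 stood at 165, 174 and 167 CPM against 135, 121 and 125 CPM.

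Genes of mitochondria and metabolism had medians of -0.36 and -0.18, with 19 and 14 of 22 below 0. COX4I1, a nuclear-encoded subunit of cytochrome c oxidase, stood at 220, 215 and 247 CPM in control vehicle and 184, 174 and 173 CPM in E5 vehicle libraries. CYB5B, the outer-membrane cytochrome b5, had overlapping libraries, at 224, 221 and 235 CPM against 233, 223 and 209 CPM. GCSH, of the glycine cleavage system, rested on 0.401 to 1.89 CPM, and GCSH and PDPR have similar copies elsewhere, so their counts are uncertain.

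Adhesion, cytoskeleton and signalling genes had medians of -0.24 and -0.29, with 18 of 28 members below 0 under each treatment. COTL1, an actin-binding protein, stood at 420, 410 and 461 CPM against 352, 326 and 320 CPM under vehicle. HAS3, a hyaluronan synthase, stood at 340, 328 and 354 CPM against 267, 276 and 273 CPM. The 53 members outside all lists had medians of -0.37 and -0.42. The lists were drawn up by function among long-arm genes with earlier results known, and their medians all lie within 0.2 log2 units of the members' median under vehicle. Under FOLFIRINOX the list of mitochondria and metabolism, at -0.18, lay further than that from the members' median of -0.40.

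In a list of 14 complexes drawn up with earlier results known, the subunits encoded in the interval were lower in E5 while their partners from other chromosomes were centred near 0. The 18 subunits among the members had medians of -0.37 and -0.43 (log2 E5/control under vehicle and under FOLFIRINOX), and 18 of 18 were below 0 under both. The 70 partners encoded on other chromosomes had medians of -0.04 and 0.04, with 44 and 30 below 0. In all 14 complexes the median of the members' subunits was below the median of the partners, under both treatments. The subunits come from an interval chosen because its genes were lower in E5. Their direction therefore follows largely from the selection, and nothing is read from these counts. In the proteasome lid PSMD7 stood at -0.35 against -0.02 for 7 partners. In cytochrome c oxidase COX4I1 stood at -0.36 against 0.11 for 9 partners. POLR2C, of the RNA polymerase II core, stood at -0.40 against -0.04 for 11 partners. In core binding factor, CBFB stood at -0.56 and the median of its 2 partners at 0.79, and NAE1 stood at -0.85 against -0.15 for its 1 partner. Subunits of complexes outside the list did not all share this direction: PSMB10 stood at 1.88 and 2.07, and EXOSC6 was above 0 under FOLFIRINOX.

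Some partners were as low as the subunits. Under vehicle 1 partner lay below the subunit median in each of retromer, the origin recognition complex, shelterin, CCR4-NOT and AP-1. In shelterin, which caps telomeres, ACD, TERF2 and TERF2IP were at -0.32, -0.34 and -0.28, and the 3 partners had a median of -0.26. Under FOLFIRINOX the shelterin medians were -0.55 and 0.04, and 4 of 9 CCR4-NOT partners lay below CNOT1.

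**Figure D4:**
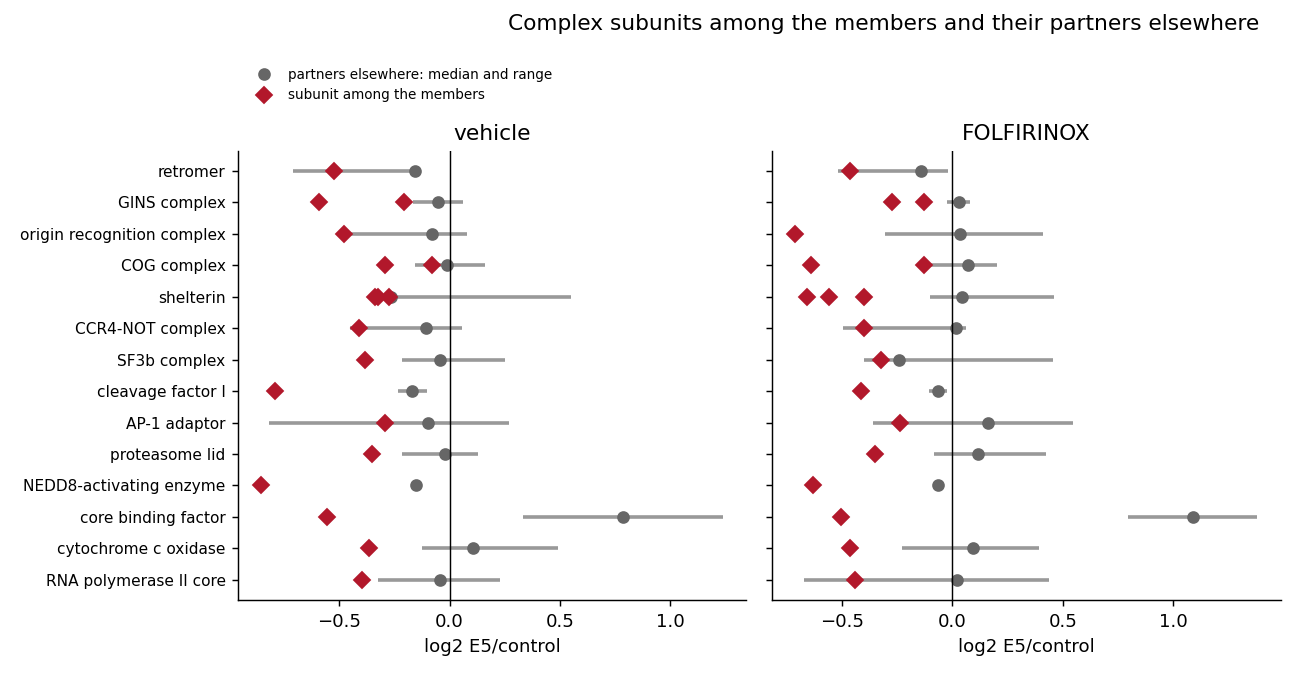
Log2 E5/control of the 18 complex subunits among the members (red diamonds) and the median (grey point) and range (grey line) of their partners encoded on other chromosomes, for 14 complexes, under vehicle (left) and FOLFIRINOX (right). All diamonds lie below 0, and the grey points have an overall median near 0.

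Against this background, 21 members were above 0 under both treatments. CDYL2, a chromodomain protein, stood at 0.333, 0.715 and 0.686 CPM in control vehicle and at 12.3, 11.2 and 11.0 CPM in E5 vehicle libraries, a difference of 4.17 ± 0.19 (log2, SE). CALB2 stood at 18.8, 19.4 and 23.9 CPM against 64.3, 66.0 and 60.7 CPM, and GNAO1, a G-protein alpha subunit, at 16.2, 18.8 and 18.2 CPM against 57.6, 51.2 and 49.6 CPM. PSMB10, a catalytic subunit of the immunoproteasome, stood at 2.33, 3.53 and 2.80 CPM against 12.7, 11.7 and 9.01 CPM. OSGIN1, an oxidative stress response gene, stood at 12.5, 12.6 and 15.5 CPM against 34.9, 31.7 and 28.6 CPM. In these 5 genes every E5 vehicle library was above every control vehicle library. They are the highest among members with a mean of 5 CPM or more, a level that CDYL2 and PSMB10 reached only through their E5 libraries. At the other end, the lowest members of 5 CPM or more under vehicle were CHD9, CPNE2, ZFP1, C16orf87 and NAE1, between -1.07 and -0.85.

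Among members under 5 CPM, chosen after their values were seen, CDH5 (a cadherin of endothelial junctions) stood at 0, 0.286 and 0.171 CPM in control vehicle and at 5.48, 5.52 and 5.61 CPM in E5 vehicle libraries. The other endothelial markers, PECAM1 and VWF, stayed at 1.11 CPM or less in every group mean, and the 3 markers summed to 6.69 to 7.14 CPM in E5 vehicle and 0.666 to 1.48 CPM in control vehicle libraries. The cytokine IL34 stood at 0.111, 0.0477 and 0.171 CPM against 1.87, 2.95 and 2.21 CPM. Such genes passed the level minimum only through their E5 libraries.

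The vehicle and FOLFIRINOX contrasts share no library, and their values went together. Over the 201 members, log2 E5/control under vehicle and under FOLFIRINOX had a Pearson correlation of 0.83 and a Spearman correlation of 0.53. On other chromosomes the same correlations were 0.83 and 0.63 over 11311 genes. These are correlations across genes, which are not independent replicates.

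FOLFIRINOX against vehicle was tested with edgeR's quasi-likelihood test, with Benjamini-Hochberg adjustment over all 15636 genes at 0.05. In control cells 143 members passed, 56 higher and 87 lower under the drug, against 65.3% of all genes (32.6% higher and 32.7% lower). In E5 cells 123 members passed, 42 higher and 81 lower, against 52.3% of all genes (25.0% and 27.3%). The median drug effect of the members was -0.14 in control and -0.15 in E5 cells, and of all genes 0.00 in each. Coding genes of 1 CPM or more on other chromosomes had medians of -0.07 and -0.04, and those of chromosome 16 before the interval -0.07 and -0.12. Of the same coding genes elsewhere, 69.9% passed in control and 58.4% in E5 cells. The split depended on the scaling. The shares of all genes above are for TMM, and those under the other scalings are not given here. With total counts in place of TMM, 75 members rose and 70 fell in control cells and 52 rose and 62 fell in E5 cells; on log2(FPKM + 1), where FPKM is the authors' length-scaled value, 72 rose and 47 fell in control and 37 rose and 42 fell in E5 cells. These scalings moved the median of all genes in control cells to 0.14 each, and the members lay 0.14 below that median with total counts and 0.05 below it on log2(FPKM + 1).

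The drug effects in both lines went together across the members, as they did across genes on other chromosomes. By call, 32 members rose in both, 69 fell in both, 38 passed in neither, and none rose in control and fell in E5. The matching counts over all genes are not given here, so nothing is read from these. NETO2 and RPGRIP1L, named after their values were seen, fell in control (-0.35 ± 0.062 and -0.24 ± 0.10, log2, SE) and rose in E5 cells (0.19 ± 0.062 and 0.38 ± 0.11). Over the 201 members the drug effects in control and in E5 cells, which share no library, had a Pearson correlation of 0.81 and a Spearman correlation of 0.79. On other chromosomes these correlations were 0.74 and 0.74 over 11311 genes. By list, the counts below use TMM scaling alone and stand beside 32.7% of all genes lower and 32.6% higher in control, and 27.3% and 25.0% in E5 cells. Of all members, 43.3% were lower and 27.9% higher in control, and 40.3% and 20.9% in E5 cells. For coding genes of 1 CPM or more on other chromosomes these shares were 38.9% and 31.0% in control, and 32.9% and 25.5% in E5 cells. Of the 21 genes of vesicle traffic and lysosome, 13 fell and 2 rose in control cells, and 14 fell and 5 rose in E5 cells. Adhesion, cytoskeleton and signalling genes gave 15 falls and 5 rises of 28 in control and 14 and 5 in E5 cells. RNA processing genes were split evenly, with 10 rises and 10 falls of 24 in control and 9 of each in E5 cells, and replication, chromosome and telomere genes gave 6 rises and 3 falls of 15 in control and 3 of each in E5 cells.

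The highest rise among members of 5 CPM or more was that of NDRG4, a cytoplasmic gene of the NDRG family, in both lines. It stood at 1.55, 1.48 and 1.89 CPM in control vehicle and 13.9, 14.7 and 14.5 CPM in control FOLFIRINOX libraries, and at 1.34, 1.26 and 1.36 CPM and 5.42, 6.47 and 5.21 CPM in the same groups of E5. NDRG4 reached the mean of 5 CPM only through its FOLFIRINOX libraries. The rises were 3.12 ± 0.14 (adjusted p = 9.6e-12, edgeR) and 2.11 ± 0.17 (4.5e-08). UTP4, a ribosome biogenesis factor, rose by 0.97 in control and 0.78 in E5 cells, and NIP7, another such factor, by 0.76 in E5 cells. ZNF267 rose by 0.72 in E5 cells, and without E5 FOLFIRINOX library 3 by 0.52, with an adjusted p of 0.061 (edgeR). CDYL2 rose by 1.02 and the kinetochore gene CENPT by 1.0 in control cells. CDYL2 reached the mean of 5 CPM only through its E5 libraries. Its rise in control cells did not pass on log2(FPKM + 1) (0.39, adjusted p = 0.092, limma).

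LPCAT2, a lysophospholipid acyltransferase, fell in both lines, by 1.54 ± 0.084 in control and 1.17 ± 0.075 in E5 cells (adjusted p = 1.3e-10 and 2.9e-09, edgeR). Its libraries went from 41.1, 40.3 and 36.7 CPM to 12.8, 12.8 and 14.6 CPM in control, and from 73.4, 81.5 and 75 CPM to 33.8, 33.0 and 35.7 CPM in E5 cells. PSMB10 fell by 1.05, the mitochondrial thymidine kinase gene TK2 by 1.01 and MBTPS1 by 0.85 in E5 cells. PSMB10 was also lower under the drug in control counts (-1.24), but on log2(FPKM + 1) its control value was 0.11. In control cells the lowest drug effects among members of 5 CPM or more were those of CALB2 (-2.24), HNRNPA1P48 (-1.72), HAS3 (-1.70) and LPCAT2. Below that level, and named after their values were seen, MMP15, a membrane-bound metalloproteinase, was at -2.02 in control and -1.60 in E5 cells, BEAN1 at -1.71 and -1.53, and RRAD, a small GTPase gene, at 4.11 and 1.57; all 6 values passed. HNRNPA1P48 carries a pseudogene-style name and resembles HNRNPA1, so its counts are uncertain.

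The drug effect differed between the lines for 53 members by the interaction test, 33 with a higher and 20 with a lower effect in E5 than in control cells, against 25.7% of all genes (13.3% and 12.4%). The 53 members are 26.4% of the 201, near that background and below the 30.3% of coding genes of 1 CPM or more on other chromosomes. With total counts the split was 23 and 27, and on log2(FPKM + 1) it was 14 and 25. The shares of all genes under these scalings are not given here. HAS3 stood at 340, 328 and 354 CPM in control vehicle and 99.9, 105 and 109 CPM in control FOLFIRINOX libraries, but at 267, 276 and 273 CPM and 247, 236 and 215 CPM in the same groups of E5. The difference of drug effects was 1.47 ± 0.086 (adjusted p = 1.0e-08, edgeR), and log2 E5/control went from -0.32 under vehicle to 1.15 under FOLFIRINOX. CALB2 stood at 4.62, 4.21 and 4.51 CPM in control FOLFIRINOX and 46.7, 45.0 and 46.5 CPM in E5 FOLFIRINOX libraries, and its difference was 1.77 ± 0.14 (2.3e-07).

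PHKB, a regulatory subunit of phosphorylase kinase, changed side in the same way. It stood at 102, 93.6 and 92.3 CPM in control vehicle against 58.6, 65.9 and 61.5 CPM in E5 vehicle libraries, and at 38.0, 32.4 and 36.4 CPM in control FOLFIRINOX against 49.0, 49.1 and 48.4 CPM in E5 FOLFIRINOX libraries. The E5 libraries were all lower under vehicle and all higher under FOLFIRINOX, and the difference of drug effects was 1.09 ± 0.10 (adjusted p = 2.0e-06, edgeR). HSBP1 also differed (0.74 ± 0.074, 3.1e-06).

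Genes with a smaller drug effect in E5 cells included NDRG4 (difference -1.02 ± 0.25, adjusted p = 0.0072, edgeR), CENPT (-0.76 ± 0.16, 0.0025) and RFWD3 (-0.52 ± 0.073, 9.2e-05). On log2(FPKM + 0.1) the call for NDRG4 was lost (adjusted p = 0.070, limma). RFWD3 rose from 142, 138 and 142 CPM to 242, 245 and 247 CPM in control cells and from 113, 112 and 109 CPM to 135, 138 and 132 CPM in E5 cells, so that the gap between the lines was wider under FOLFIRINOX. TERF2 and TERF2IP, both of shelterin, had differences of -0.32 ± 0.094 (0.020) and -0.28 ± 0.085 (0.024). CDYL2 (-0.88 ± 0.30, 0.041) lost its call with DESeq2 (adjusted p = 0.072), on the FPKM scales, without the filter on low counts and in 10 of the 12 fits that each left out a library.

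**Figure D5:**
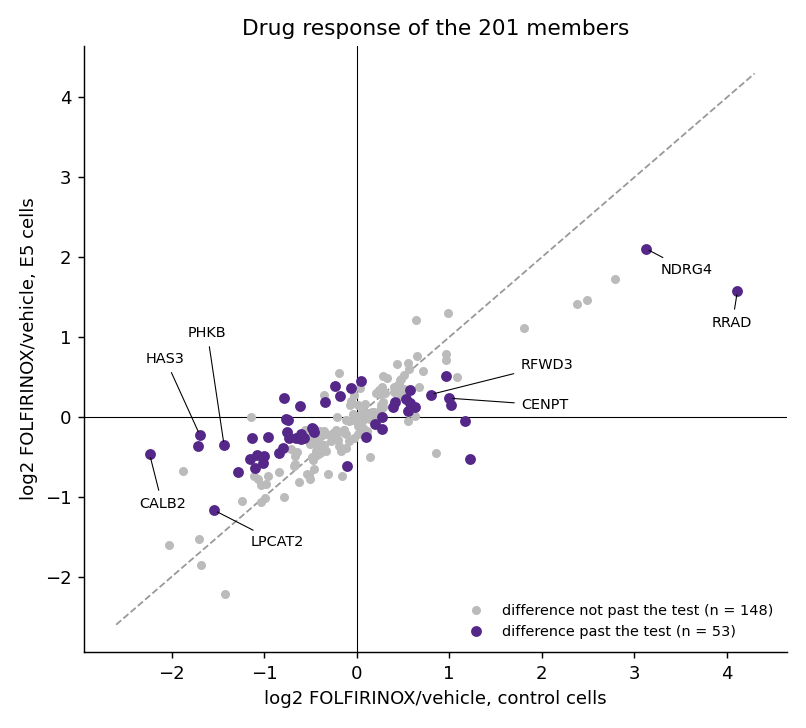
Log2 FOLFIRINOX/vehicle of the 201 members in control cells (horizontal) and E5 cells (vertical); purple points passed the test of the difference between lines (n = 53), grey points did not (n = 148), and the dashed line marks equal effects. CALB2, HAS3 and PHKB lie above the line and NDRG4, CENPT, RFWD3 and RRAD, a low-level gene, below it.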

How the data were processed

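Per the labels' protocols, RNeasy columns gave the RNA and the KAPA mRNA HyperPrep chemistry the libraries. STAR 2.5.1b, Trimmomatic and GRCh38 are named in the submitters' processing notes. The authors deposited stranded counts of reads per gene and FPKM, both with 3 columns for each of the 4 samples; no other column was used. Rows that name no gene were left out of totals. Of gene reads and these rows together, unmapped reads made up 1.47% to 1.70% and multimapping reads 10.8% to 12.8%. Reads with no feature made up 6.63% to 8.52% and ambiguous reads 2.86% to 3.20%. Multimapping reads are lost to genes with close copies.

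The members, gene lists and tests were chosen with earlier results of these data known. Counts were fitted with edgeR 4.0.16 (R 4.3.3): TMM, filterByExpr, 1 mean per group over 12 libraries, quasi-likelihood test, Benjamini-Hochberg adjustment over 15636 genes; all 201 members passed the filter. CPM in the text are TMM-scaled. No 2 libraries of a group were duplicates: their counts differed by 1.46 to 13.3 times the counting variance. The fit was tested on simulated data. DESeq2 1.42.0, limma 3.58.1 on log2 of the deposited FPKM plus 1 or 0.1, other scalings, no filter, a replicate block and each library left out were alternatives. Named genes were the 3 on each side of each end, the 2 highest of each list, the 5 highest and 5 lowest under vehicle at 5 CPM or more, the up to 4 highest and 4 lowest calls of each test at 5 CPM or more, and the complex subunits. Promoters came from RefSeq (GRCh38.p14).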

Additional observations from a re-analysis of the deposited data

Results flagged for a closer look

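For 53 members the effect of FOLFIRINOX differed between control and E5 cells by edgeR's interaction test, adjusted over all genes. This is 26.4% of the members, near the 25.7% of all genes tested and below the 30.3% of coding genes of 1 CPM or more on other chromosomes. Among the 8 of these that the naming rule takes, the difference of drug effects (log2, E5 minus control) was 1.77 for CALB2, 1.47 for HAS3, 1.35 for HNRNPA1P48 and 1.09 for PHKB. It was -1.02 for NDRG4, -0.88 for CDYL2, -0.76 for CENPT and -0.52 for RFWD3. These values describe how the distance between the lines changed with treatment: for HAS3, HNRNPA1P48 and PHKB, E5 was below control under vehicle and above it under FOLFIRINOX.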

How the results depend on the processing

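The medians of the members' log2 E5/control stayed below 0 under every alternative run, from -0.37 to -0.34 under vehicle and -0.41 to -0.35 under FOLFIRINOX when each library was left out. The FOLFIRINOX median moved to -0.50 on log2(FPKM + 0.1) and to -0.48 with total counts; total counts moved the median of all genes to -0.09 in that contrast and log2(FPKM + 0.1) moved it to -0.13, and to 0.19 and -0.12 for the drug effect in control and the difference. Members called in E5 fell to 80 on log2(FPKM + 0.1) and 79 on log2(FPKM + 1), and the difference of drug effects to 34 on log2(FPKM + 0.1). The shares of all genes called in the alternative fits are not given here. Leaving out each library gave 130 to 144 calls in control, 105 to 128 in E5 and 37 to 52 for the difference. With the replicate block 140, 120 and 44 members were called. Deviations of same-numbered libraries correlated between -0.54 and 0.44 (median -0.15, and 0.14 for different numbers). With 3 libraries per group these correlations depend on each other, so they cannot decide whether the numbers pair the libraries. Of the named genes' values (275 results of 55 genes under 19 alternatives), 4918 kept direction and call, 170 lost a call, 56 gained one, 63 moved and 18 reversed. The reversals, all on FPKM (values for + 0.1, then + 1), were the drug effect in control of C16orf95 (0.0447, 0.0412), NUDT21 (0.026, 0.0258), PSMB10 (0.12, 0.112) and SF3B3 (0.0355, 0.0353), that in E5 of GNAO1 (0.031, 0.029), NUDT21 (0.0402, 0.0394) and SF3B3 (0.00541, 0.00539), the difference for LPCAT2 (-0.186, -0.201), and E5/control under FOLFIRINOX of MBTPS1 (-0.0033, -0.0031); the cause was not tested. The range of E5/control across members was widest at 1 to 5 CPM, where the fewest reads stand behind a value.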
